A study of Mus musculus with 12 samples.

Results

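The glucocorticoid receptor gene *Nr3c1*, the hormone-activating enzyme gene *Hsd11b1* and 8 genes that glucocorticoids induce (*Fkbp5*, *Tsc22d3*, *Sgk1*, *Klf9*, *Zbtb16*, *Ddit4*, *Arrdc2* and *Cebpd*) were examined in newborn mouse lungs with and without cavin-1. The members are all probes that the array annotation gives to these 10 symbols, 17 of 45281 probes, or 10 of 19057 genes after probes were merged. Lung RNA came from 6 cavin-1-deficient (KO) and 6 wild-type (WT) pups, labelled as C57/Bl6 or C57/bl6 and as at most 6 h old, although the methods allow a longer time after birth. The labels name no hormone treatment in either group. The KO allele carries a lacZ/neo cassette and is not limited to a cell type, and the controls were littermates, although no label says which pups were born together. Sex was not labelled. Each array held the RNA of 1 lung.

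Corticosterone, the main glucocorticoid of mice, binds a receptor that HSP90 and its co-chaperones hold in the cytoplasm. The bound receptor enters the nucleus and attaches to DNA at pairs of short half-sites that mirror each other, and genes near such sites are switched on or off. In the lung, glucocorticoids act before birth on the mesenchyme and epithelium, thin the alveolar walls and promote the production of surfactant, and the hormone surges around birth. Levels of hormone were not measured here, so the genes give only the amount of their own RNA. RNA came from whole tissue, and fewer cells of a type cannot be told apart from less RNA per cell.

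Signals are given on a log2 scale after background correction and quantile normalization, so a difference of 1 is a doubling. A gene passed the test at an adjusted p under 0.05 from limma, which was fitted over all genes. The library labelled KO 157 had *Cavin1* at the WT level, 11.66 on the second probe against 3.60 to 5.37 in the other 5 KO libraries and 11.57 to 11.79 in the 6 WT libraries, and its labels name 2 different animals. Library WT 142 stood apart from its group by Dixon's criterion, which compares the gap to the nearest lung with the range of the group, in 3.84% of 17622 probes, the most of any library. Differences of the members are therefore given also without 1 or both of these libraries, and those of other genes only in part. Between 45.3% and 49.1% of probes were detected on each array. Markers of alveolar type 2 cells, alveolar type 1 cells, endothelium and mesenchyme (4, 4, 5 and 4 genes) were all detected in both groups.

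The sequence that the receptor binds was sought in RefSeq promoter windows of build GRCm38.p6, from 250 bases before to 50 bases after each transcript start. Windows were at hand for 7 of the 10 members, 14 windows in all. The full palindrome, the half-site AGAACA followed by any 3 bases and by its mirror image TGTTCT, was sought on both strands and stood in 3 of 32851 windows (0.00913%). *Sgk1* held 1 of these 3, in 1 of its 6 windows, at chr10:21993640-21993939 on the plus strand. The match covered 189 to 175 bases before the start of that transcript and is shown in capitals, because it was the single member window with the whole motif. *Map3k6* was the gene whose signal followed that of *Fkbp5* most closely over the lungs after genotype means were subtracted. It held a looser form of the motif, with GNACA, any 3 bases and TGTNC (N being any base). Its window lies at chr4:133240568-133240867 on the plus strand, and the match, also in capitals, covers 181 to 169 bases before its start.
Sgk1: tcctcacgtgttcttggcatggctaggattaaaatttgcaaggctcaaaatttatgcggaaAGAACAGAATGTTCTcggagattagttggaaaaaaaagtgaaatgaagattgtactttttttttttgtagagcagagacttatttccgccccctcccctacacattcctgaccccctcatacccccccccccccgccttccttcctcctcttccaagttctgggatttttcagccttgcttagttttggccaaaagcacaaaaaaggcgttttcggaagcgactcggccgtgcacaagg
Map3k6: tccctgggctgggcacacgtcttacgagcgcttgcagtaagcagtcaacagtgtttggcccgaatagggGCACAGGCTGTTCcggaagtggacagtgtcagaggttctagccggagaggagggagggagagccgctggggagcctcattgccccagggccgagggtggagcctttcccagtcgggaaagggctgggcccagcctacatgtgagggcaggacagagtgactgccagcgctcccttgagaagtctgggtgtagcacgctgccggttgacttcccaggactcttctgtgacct

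Every match to the full palindrome is also one to the looser form, which was present in 0.475% of windows, either strand counted. Among the 26 other glucocorticoid-induced genes with a window, 3 held it. These were *Map3k6*, the metallothionein gene *Mt1* with GGACATGATGTTC at 94 to 82 bases before the start (chr8:94178995-94179007), and *Fam107a* with GGACATGGTGTTC (chr14:8309885-8309897). The half-site TGTTCT occurred in 19% of windows and in windows of 2 members, *Sgk1* and *Tsc22d3*. Such matches are descriptions of letters in short windows, and binding was not measured.

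In the comparison of KO with WT lungs, 0 of 10 members passed limma's threshold (0.199% of all genes did). At an unadjusted p under 0.05, 7 of 10 had a higher mean in KO lungs, against 6.22% of all genes, and 0 had a lower mean, against 7.44% (13.7% in either direction). These were *Fkbp5*, *Tsc22d3*, *Klf9*, *Zbtb16*, *Ddit4*, *Arrdc2* and *Hsd11b1*. The members were chosen with earlier results of these data known, so such counts are not independent evidence. All 8 induced members had a positive log2 difference, with a median of 0.88 against −0.01 over all genes. The median of the 8 was 0.70 when KO 157 was left out, 0.56 when WT 142 was, and 0.40 when both were. All 8 differences stayed positive in these 3 fits. Members with an unadjusted p under 0.05 numbered 4 of 10 without KO 157, against 5.48% of all genes higher in KO, namely *Klf9*, *Ddit4*, *Arrdc2* and *Hsd11b1*. Without both libraries they were also 4, against 5.71%, with *Zbtb16* in place of *Klf9*.

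**Figure D1:**
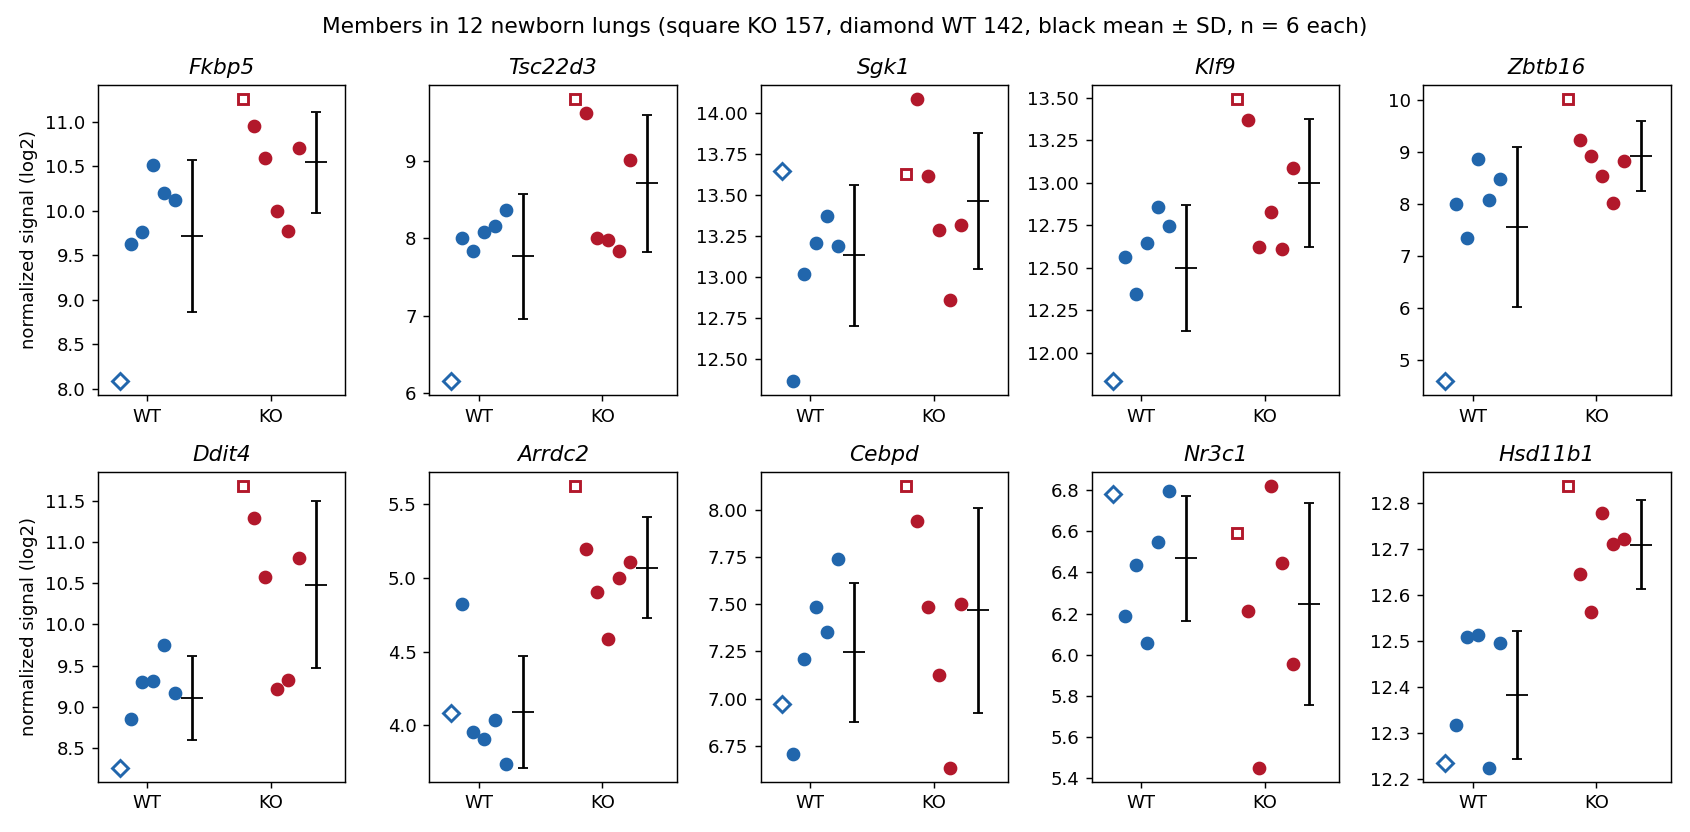
Normalized log2 signal (vertical axis, its range set for each gene) of the 10 members in each of 6 WT (blue) and 6 KO (red) lungs, with the mean ± SD in black. The open square is the library labelled KO 157, highest of 12 in 7 of the 8 induced members (12.7% of all genes). The open diamond is WT 142, lowest of 12 in 5 of the 8 (9.14% of all genes).

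The hormone is made active inside lung cells by 11β-hydroxysteroid dehydrogenase 1, the product of *Hsd11b1*, which turns inert 11-dehydrocorticosterone into corticosterone. *Hsd11b1* signals ran from 12.56 to 12.84 in KO lungs, with a median of 12.72, and from 12.23 to 12.51 in WT lungs, with a median of 12.41. Every KO lung lay above every WT lung, which was true of 0.54% of all genes, and *Hsd11b1* was the only member without overlap. The difference was small, 0.33 (SE 0.08, adjusted p = 0.0836 from limma), or 1.25-fold with a 95% interval of 1.12 to 1.41. Without KO 157 it was 0.30 (adjusted p = 0.135), and the groups still did not overlap (0.714% of all genes), and without both libraries it was 0.27. Its SE depended on the processing, being 0.11 from limma without a trend (adjusted p = 0.247) and 0.12 with median scaling (adjusted p = 0.303 from limma).

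*Hsd11b1* was measured by 4 probes, all detected in all 12 lungs. Their differences were 0.31, 0.35, 0.39 and 0.20 (ILMN_1214998, ILMN_2774160, ILMN_3041149 and ILMN_3115917), and all 4 had an unadjusted p under 0.05. KO and WT lungs did not overlap on ILMN_2774160 and ILMN_3041149, which was the case with a higher KO level for 0.629% of all probes. On the other 2 probes 5 of 6 KO lungs lay above the highest WT lung. Over all 17 member probes, 0 passed limma's threshold, against 0.148% of the 45281 probes, and 12 were higher in KO at an unadjusted p under 0.05, against 6.33%.

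The receptor itself showed no difference past the threshold. *Nr3c1*, measured by 1 probe detected in all lungs, ranged from 5.45 to 6.82 in KO lungs (median 6.33) and from 6.06 to 6.79 in WT lungs (median 6.49). The groups overlapped widely, and the lowest and the highest lungs of the 12 were both KO (KO 192 and KO 235). The difference was −0.22 (SE 0.21, adjusted p = 0.711), and its 95% interval of −0.68 to 0.23 corresponds to 0.63-fold to 1.18-fold. It was −0.29 without KO 157, −0.06 without KO 192 and −0.34 without KO 235, and −0.09 with no background correction.

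Feedback on the receptor is exerted by *Fkbp5*, whose product FKBP51 binds HSP90 and lowers the receptor's affinity for hormone. *Fkbp5* signals lay between 9.77 and 11.26 in KO lungs (median 10.64) and between 8.09 and 10.51 in WT lungs (median 9.94). KO 157 was the highest lung and WT 142 by far the lowest, and 4 of 6 KO lungs lay above the highest WT lung. The difference was 0.83 (SE 0.34, adjusted p = 0.297), or 1.77-fold (95% interval 1.08 to 2.91). It was 0.68 without KO 157, 0.50 without WT 142 and 0.36 without both.

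*Tsc22d3* encodes GILZ, a leucine zipper protein that binds NF-κB and AP-1 and takes part in the anti-inflammatory action of the hormone. Its merged signal ran from 7.83 to 9.80 in KO lungs (median 8.51) and from 6.16 to 8.37 in WT lungs (median 8.04). KO lungs fell apart into KO 157, KO 186 and KO 238, at 9.80, 9.62 and 9.02, and the other 3, at 7.83 to 8.01 and within the range of the WT lungs. The difference was 0.94 (SE 0.39, adjusted p = 0.307), 0.72 without KO 157, 0.62 without WT 142 and 0.40 without both.

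The array holds 3 *Tsc22d3* probes, each annotated to a different transcript record. Their differences were 0.31 (ILMN_2648224), 0.94 (ILMN_2701664) and 0.52 (ILMN_3150811), and 0.17, 0.72 and 0.39 without KO 157. Unadjusted p from limma's fit was under 0.05 for the second and the third of these probes but not for the first. WT 142 was the lowest lung on all 3.

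*Zbtb16* encodes the zinc finger repressor PLZF. Its signal was 8.03 to 10.03 in KO lungs (median 8.88) and 4.60 to 8.87 in WT lungs (median 8.04). The lowest value belonged to WT 142, with the other 5 WT lungs at 7.35 to 8.87, and 3 of 6 KO lungs lay above the highest WT lung. The difference of 1.37 (SE 0.55, adjusted p = 0.288) was 1.15 without KO 157, 0.77 without WT 142 and 0.56 without both. With no background correction it was 0.89.

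*Klf9*, which encodes a Krüppel-like transcription factor that also responds to thyroid hormone, had signals of 12.61 to 13.49 in KO lungs (median 12.96) and 11.83 to 12.86 in WT lungs (median 12.60). As for *Tsc22d3*, the 3 KO lungs above all WT lungs were KO 157, KO 186 and KO 238. The difference was 0.50 (SE 0.18, adjusted p = 0.222), or 1.42-fold (95% interval 1.09 to 1.84), and 0.27 without both libraries.

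*Ddit4* encodes REDD1, an inhibitor of the growth kinase complex mTORC1 that is induced by hypoxia as well as by glucocorticoids. Its signals ran from 9.22 to 11.69 in KO lungs (median 10.69) and from 8.26 to 9.75 in WT lungs (median 9.23). Of 6 KO lungs, 4 lay above the highest WT lung, while KO 235 and KO 237, at 9.22 and 9.32, were among the WT values. *Ddit4* had, with *Zbtb16*, the largest difference of the members, 1.38 (SE 0.37, adjusted p = 0.113), or 2.60-fold, with a 95% interval of 0.59 to 2.17 on the log2 scale. Without KO 157 it was 1.14 (adjusted p = 0.179) and without both libraries 0.97. The study chose *Ddit4* for RT-qPCR on the basis of these libraries, so its direction here is not independent evidence.

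*Arrdc2*, which encodes an arrestin-domain protein, was dim, at 4.59 to 5.63 in KO lungs (mean 5.07 ± 0.34, SD, n = 6) and 3.74 to 4.82 in WT lungs (mean 4.09 ± 0.38). In KO lungs 5 of 6 values lay above the highest WT value, that of WT 177, and KO 235 was the exception. The difference was 0.98 (SE 0.23, adjusted p = 0.0836), 0.87 without KO 157 (adjusted p = 0.135) and 0.87 without both libraries. It depended on the background step, being 0.26 with no background correction, 0.33 with another correction (normexp with an offset of 50) and 0.54 with the authors' processed values. Of its 2 probes, ILMN_2693835 was detected in all 12 lungs and gave 1.06. The other, ILMN_2613191, was detected in 5 KO and 0 WT lungs. Its measured difference was 0.90 (adjusted p = 0.177 from limma over all probes). Only a bound holds for it, at least 1.04-fold higher in KO against the lowest detected signal of each array. That bound was not tested, and its KO mean includes KO 235, where the probe was not detected.

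*Sgk1* encodes a kinase that raises sodium uptake through epithelial channels, and it also answers to mineralocorticoids, serum and cell shrinkage. Its signals were 12.86 to 14.09 in KO lungs (median 13.47) and 12.37 to 13.65 in WT lungs (median 13.20). The order of lungs differed from that of the other induced members, since the highest was KO 186 and the second highest was WT 142, at 13.65. The difference was 0.33 (SE 0.20, adjusted p = 0.502), with a 95% interval of −0.09 to 0.76, and 0.30 without KO 157. It was 0.18 without WT 177, 0.21 without KO 186 and 0.44 without WT 142.

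*Cebpd* encodes the transcription factor C/EBPδ. Its merged signals, 6.64 to 8.13 in KO lungs (median 7.49) and 6.71 to 7.74 in WT lungs (median 7.28), overlapped, 2 of 6 KO lungs lay above the highest WT lung, and the lowest lung was KO 237. The difference was 0.22 (SE 0.23, adjusted p = 0.726), and its 2 probes differed in sign. It was 0.09 without KO 157, 0.13 without KO 186, 0.12 without WT 177, 0.39 without KO 237 and 0.04 without both KO 157 and WT 142. ILMN_2588570, which was detected in 11 of the 12 lungs, gave 0.52 (adjusted p = 0.574 over all probes), and ILMN_2707363, far above background, gave −0.07 (adjusted p = 0.906).

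**Figure D2:**
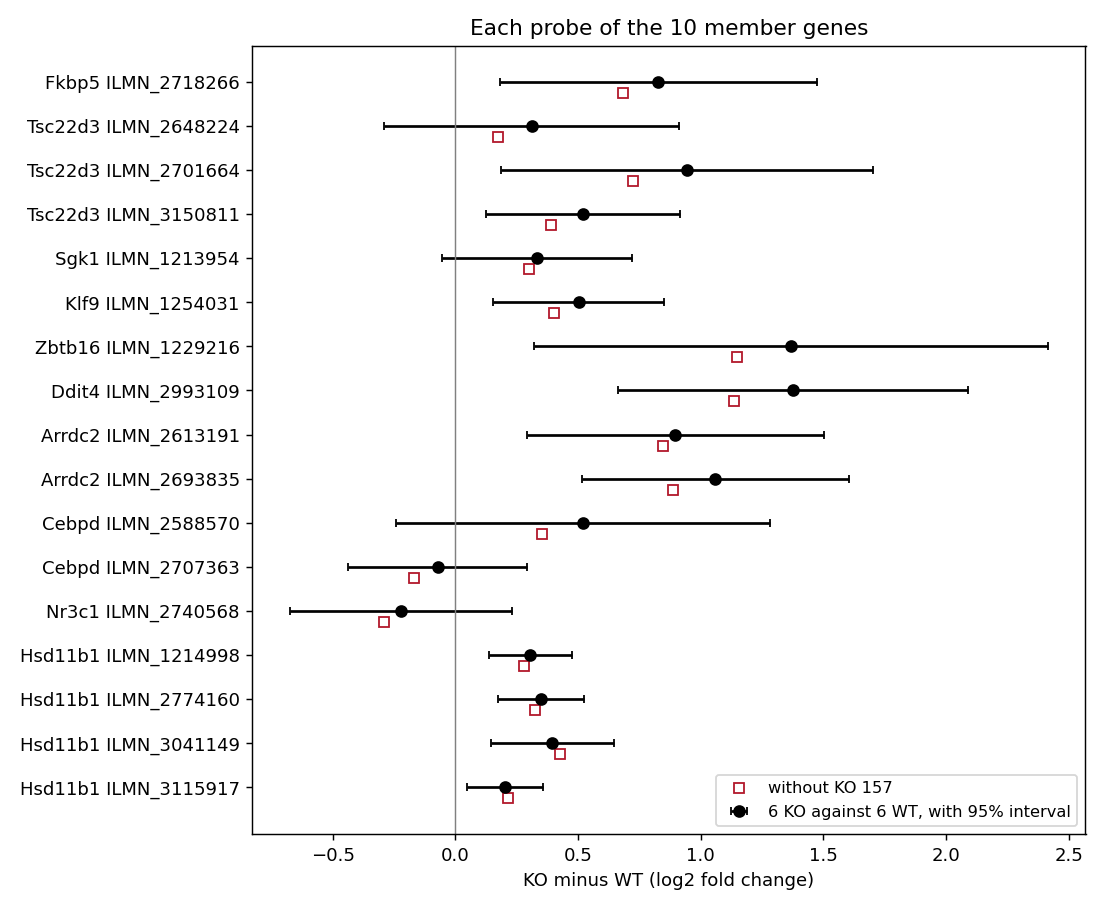
KO minus WT log2 difference of each of the 17 member probes (black, with the 95% interval from limma) and the same without the library labelled KO 157 (open red squares). Only 1 of 2 *Cebpd* probes and the *Nr3c1* probe lie below 0, and most squares lie to the left of the black points, while the 4 *Hsd11b1* probes hardly move.

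Individual lungs differed in the induced members as a set. KO 157 and KO 186 were among the 3 highest of 12 lungs in all 8 induced members, and KO 238 in 5 of 8. WT 142, WT 177 and WT 179 were each among the 3 lowest in 6 of 8. Over all 19057 genes, KO 157, KO 186 and KO 238 were among the 3 highest in 29%, 23.6% and 25%, and WT 142, WT 177 and WT 179 among the 3 lowest in 25.7%, 23.8% and 22%.

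**Figure D3:**
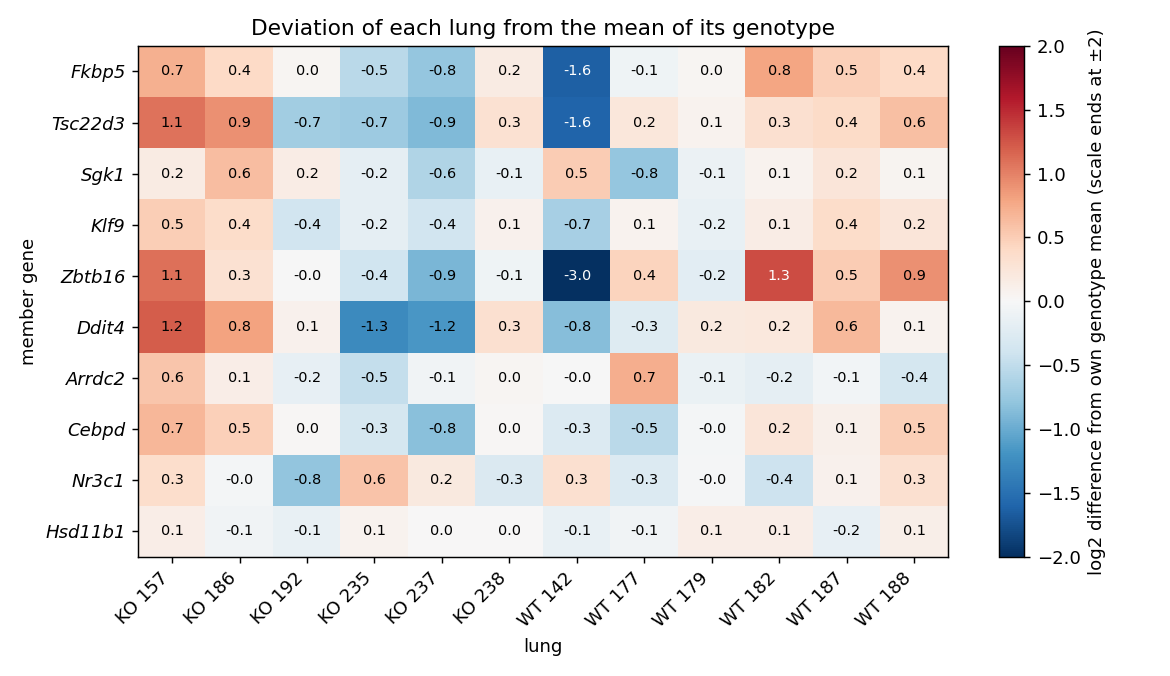
Log2 difference of each lung (columns) from the mean of its own genotype for each member (rows), with colours capped at ±2. KO 157 and KO 186 are positive for all 8 induced members, KO 235 and KO 237 are negative, and WT 142 is strongly negative for *Fkbp5*, *Tsc22d3* and *Zbtb16* but positive for *Sgk1*.

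Variation between lungs of the same genotype was compared among members after genotype means were subtracted, over 12 lungs. Signals of 45 pairs of members were correlated, with 100000 permutations within genotype and Benjamini-Hochberg adjustment over the 45. Adjusted p was under 0.05 for 13 pairs by Pearson's r and for 14 by Spearman's rho, all of them positive and all between *Fkbp5*, *Tsc22d3*, *Klf9*, *Zbtb16*, *Ddit4* and *Cebpd*. *Tsc22d3* and *Klf9* gave the highest r, 0.96 (adjusted permutation p = 0.00157; rho = 0.99, adjusted permutation p = 0.00112), and r was 0.92 without the 2 lungs farthest from the median, KO 237 and WT 142. For *Fkbp5* and *Zbtb16* r was 0.95 (adjusted permutation p = 9.0e-04; rho = 0.90, adjusted permutation p = 0.00112), and 0.85 without these 2 lungs. For *Fkbp5* and *Tsc22d3* r was 0.90 (adjusted permutation p = 0.00191; rho = 0.88, adjusted permutation p = 0.00394), and 0.75 without them.

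The 15 pairs among these 6 genes had r between 0.57 and 0.96. When both KO 157 and WT 142 were left out, r was between 0.53 and 0.91, and all 15 remained positive. Of the 28 pairs of all 8 induced members, 32.1% had an r of at least 0.8, against 0.414% of all pairs of the 10153 genes detected on all arrays. Points of such correlations share their arrays and their RNA, and genes are not independent of each other.

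None of the pairs between these 6 genes and *Sgk1*, *Arrdc2*, *Nr3c1* or *Hsd11b1* passed the threshold by r or rho. For *Sgk1*, r with the 6 ranged from −0.11 to 0.67 and depended on which lungs were left out. Without WT 142, in which *Sgk1* was high and the others low, r ranged from 0.55 to 0.85. Leaving out KO 237 and WT 177, the 2 lungs farthest from the median of *Sgk1*, lowered it instead. There r was 0.27 with *Cebpd*, 0.24 with *Ddit4*, 0.02 with *Klf9* and −0.28 with *Zbtb16*. *Arrdc2* gave r from 0.02 to 0.40 with all lungs and −0.33 to 0.26 without both libraries. For the receptor gene *Nr3c1* r ranged from −0.32 to 0.06 and for *Hsd11b1* from 0.11 to 0.47. Without both libraries these ranges were −0.49 to 0.15 and −0.37 to 0.05.

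**Figure D4:**
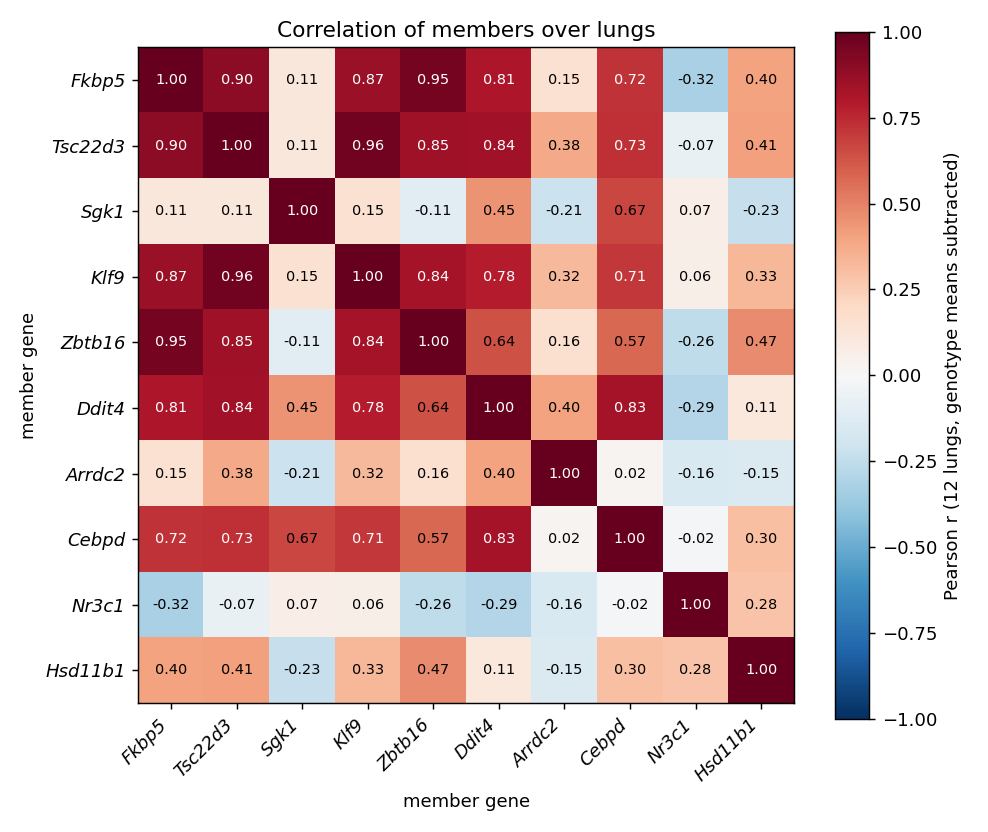
Pearson's r between members over 12 lungs after subtraction of genotype means (colour scale from −1 to 1, values printed in the cells). A block of high r joins *Fkbp5*, *Tsc22d3*, *Klf9*, *Zbtb16*, *Ddit4* and *Cebpd* (0.57 to 0.96), and *Arrdc2*, *Nr3c1* and *Hsd11b1* lie outside it, as does *Sgk1* apart from its r of 0.67 with *Cebpd*.

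Among the 10153 genes detected on all arrays, those with the most similar course to *Fkbp5* over the 12 lungs were *Map3k6* (r = 0.97), which encodes a stress-activated kinase, *Adm* (0.96), which encodes the vasodilator adrenomedullin, *Zbtb16* (0.95), *Crispld2* (0.95), which encodes a secreted protein of lung mesenchyme, and *Erf* (0.94), an ETS-family repressor. For *Tsc22d3* they were *Klf9* (0.96), *Igfbp3* (0.95), which encodes a binding protein of insulin-like growth factors, *Fam180a* (0.94), *Rhebl1* (0.94) and *Pus10* (0.94). These r values were taken after genotype means were subtracted and are a measure of likeness with no test. WT 142 was the lowest lung for *Fkbp5*, *Map3k6* and *Crispld2*, at 8.09, 8.21 and 6.01, and r without it was not computed for these lists. *Map3k6* and *Crispld2* are also known targets of the hormone and are in the list that follows.

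Of 31 other genes known to be induced by glucocorticoids, 30 were measured and *Acsl1* was not analysed here. Limma called 1 higher, *Per1* (0.0945% of all genes), and 0 lower. At an unadjusted p under 0.05, 12 of 30 were higher in KO lungs and 0 lower, against 6.22% and 7.44% of all genes. The list was drawn up with earlier results of these data known. Among the 12 are *Lpin1*, *Cdkn1a*, *Angptl4* and *Nfkbia*, which the study chose from these libraries for RT-qPCR. The counts are therefore not independent evidence. The differences of 24 of 30 were positive, and the median was 0.32, or 0.23 without KO 157 and 0.20 without both libraries. The highest lung of the 12 was KO 157 for 16 of the 30 genes and KO 186 for 8, against 12.7% and 7.02% of all genes.

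*Per1*, a clock gene with a classical receptor site, had signals of 8.97 to 9.71 in KO lungs (median 9.18) and 7.91 to 8.90 in WT lungs (median 8.48). All KO lungs lay above all WT lungs, which was true of 3 of the 30 genes and of 0.54% of all genes. The difference was 0.86 (SE 0.16, adjusted p = 0.0477 from limma), or 0.76 with an adjusted p of 0.0845 without KO 157. The call was lost under 22 of 26 other settings, with an adjusted p of at most 0.118.

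*Pdk4*, which encodes a kinase that spares glucose by blocking pyruvate dehydrogenase, was at 9.90 to 10.91 in KO lungs and 7.85 to 9.70 in WT lungs, again with no overlap, and differed by 1.41 (SE 0.28, adjusted p = 0.0524). *Lpin1*, for an enzyme of triglyceride synthesis, did not overlap either and differed by 0.96 (adjusted p = 0.0797), although 2 of its 4 probes were at background in all lungs. *Cdkn1a*, the gene of the cell cycle inhibitor p21, differed by 1.29 (adjusted p = 0.0818) and overlapped. Without KO 157, *Pdk4*, *Lpin1* and *Cdkn1a* differed by 1.33, 0.87 and 1.12 (adjusted p = 0.100, 0.129 and 0.132 from limma). The study had also chosen *Lpin1* and *Cdkn1a* from these libraries for RT-qPCR. The lowest differences of the list were −0.27 for *Lcn2* and −0.27 for *Thbd*, with adjusted p of 0.416 and 0.375 from limma.

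**Figure D5:**
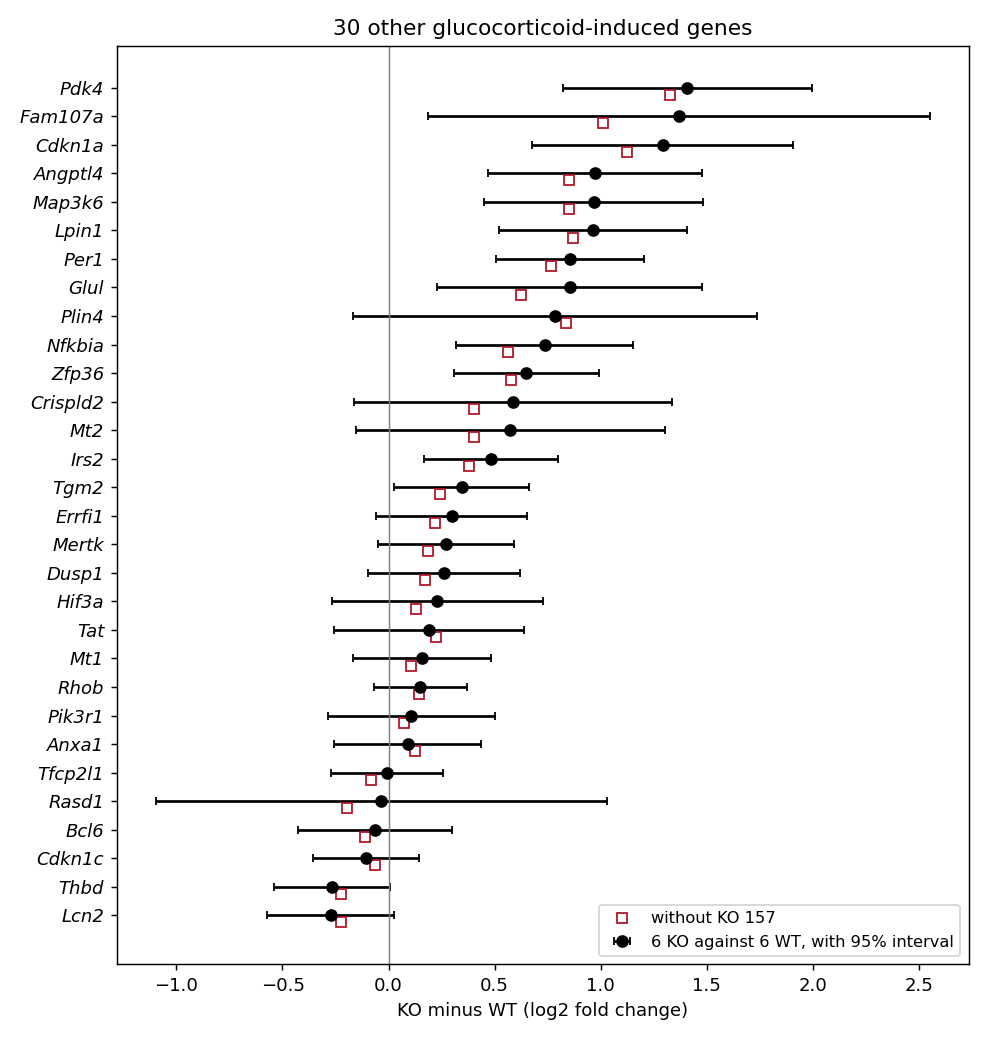
KO minus WT log2 difference of 30 other glucocorticoid-induced genes (black, with the 95% interval from limma) and the same without the library labelled KO 157 (open red squares). *Pdk4* (1.41) is the highest and *Lcn2* (−0.27) the lowest, and 24 of 30 points lie above 0.

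Genes that hold the receptor ready or supply its ligand were examined in a list of 13, of which 12 were measured and *Hsp90ab1* was not analysed here. Limma called 0 higher and 1 lower (0.105% of all genes). The 1 was *Ptges3*, which encodes the HSP90 co-chaperone p23 that stabilizes the hormone-binding form of the receptor. *Ptges3* signals were 9.78 to 10.13 in KO lungs (median 9.90) and 10.26 to 10.66 in WT lungs (median 10.39). Every KO lung, KO 157 included, lay below every WT lung, as for 0.939% of all genes. *Ptges3* fell by 0.49 (SE 0.09, adjusted p = 0.0477 from limma), and without KO 157 the difference was also −0.49 with an adjusted p of 0.0699. The call was lost under 19 of 26 other settings, in which the highest adjusted p was 0.159.

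Other genes of this list did not pass. *Fkbp4*, whose product FKBP52 replaces FKBP51 on the activated receptor, differed by −0.34 (adjusted p = 0.246) and the chaperone gene *Hsp90aa1* by −0.31 (adjusted p = 0.351). *H6pd*, which supplies NADPH to 11β-hydroxysteroid dehydrogenase 1, differed by 0.29 (adjusted p = 0.215 from limma), and 5 of 6 KO lungs lay above the highest WT lung. *Nr3c2*, the mineralocorticoid receptor gene, *Ncoa1*, *Abcb1a* and *Serpina6* were not detected in any lung.

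Of 8 inflammatory genes that the hormone lowers, *Il6*, *Tnf*, *Ccl2*, *Ptgs2* and *Nos2* were detected in at most 3 lungs of a group, so the list could show little. The 3 that were detected in all lungs went in different directions, *Cxcl1*, a chemokine for neutrophils, at 0.88 (adjusted p = 0.248), the cytokine gene *Il1b* at −0.49 (adjusted p = 0.529) and the adhesion gene *Icam1* at 0.05 (adjusted p = 0.930). Without both KO 157 and WT 142, *Cxcl1* was at 1.10 (adjusted p = 0.0614 from limma), *Il1b* at −0.13 and *Icam1* at 0.14. With all lungs, 1 of the 8 was higher at an unadjusted p under 0.05, *Cxcl1*, and 0 lower, against 6.22% and 7.44% of all genes. Among 11 genes of lung maturation the median was 0.07 and 2 were higher at an unadjusted p under 0.05, against 6.22% of all genes. One was *Lpcat1* (0.50, adjusted p = 0.109), which makes the main lipid of surfactant, and the other was *Cebpa* (0.44, adjusted p = 0.239), a transcription factor of the epithelium. The surfactant protein genes *Sftpa1*, *Sftpb*, *Sftpc* and *Sftpd* differed by 0.21, 0.11, 0.06 and 0.03, with adjusted p of at least 0.581 from limma.

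Genes of handling stress and markers of other cell types were measured beside the members, and none of those named here passed limma's threshold. Of 8 immediate early genes, which tissue handling and stress induce, 2 were higher at an unadjusted p under 0.05, against 6.22% of all genes, *Egr1* (0.50, adjusted p = 0.173) and *Jun* (0.29, adjusted p = 0.348). Their summed signal was 4149 to 9087 in KO lungs and 3252 to 5438 in WT lungs, with 7055 in KO 157, 9087 in KO 186 and 4041 in WT 142. Over the 12 lungs, with genotype means subtracted, this signal gave r of 0.79 with *Cebpd* (rho = 0.71), 0.76 with *Ddit4* (rho = 0.75) and 0.76 with *Sgk1* (rho = 0.73), and at most 0.54 with the other 5 induced members. Adjusted permutation p for these 3 genes was 0.136, 0.214 and 0.136 by r and 0.276, 0.272 and 0.272 by rho, over 136 relations of 17 lists with the 8 induced members, of which 0 passed. Without the 2 lungs farthest from the median, KO 186 and KO 237, r was 0.70, 0.67 and 0.54. Leaving out KO 157 and WT 142 instead gave 0.79, 0.80 and 0.88. For the summed alveolar type 2 markers, r with the 8 induced members ran from −0.67 for *Ddit4* (rho = −0.73) to 0.03 for *Arrdc2* (rho = −0.03). Of 5 endothelial markers 2 were higher at an unadjusted p under 0.05, against 6.22% of all genes, *Pecam1* (0.44, adjusted p = 0.0873) and *Cldn5* (0.47, adjusted p = 0.0940). Each had 5 of 6 KO lungs above the highest WT lung, and *Cdh5*, *Tek* and *Kdr* differed by 0.01, −0.02 and −0.19. Probes of *Pecam1*, all detected in every lung, disagreed, at 0.44, 0.04 and −0.32. The *Kdr* probe detected in every lung gave −0.53, and the other, at background in every lung, gave 0.16. Signals of the 5 endothelial markers summed to 8805 to 12859 in KO and 8565 to 11240 in WT lungs. Of 4 mesenchymal markers 1 was lower at an unadjusted p under 0.05, against 7.44% of all genes, *Col1a2* (−0.46, adjusted p = 0.168). *Col1a1* and *Tcf21* differed by −0.08 and −0.16, while the *Pdgfra* probe detected in every lung was higher by 0.33. Signals of the 4 mesenchymal markers summed to 7427 to 9485 in KO and 8757 to 9997 in WT lungs. Of 4 neutrophil markers 3 were higher at an unadjusted p under 0.05, against 6.22% of all genes, among them *Camp* (1.14, adjusted p = 0.0836) and *Ngp* (0.98, adjusted p = 0.0911). Their summed signal overlapped, at 15696 to 21553 in KO and 13693 to 23239 in WT lungs, with 15696 in KO 157. Skeletal muscle markers had a median difference of 1.93 over 6 genes, and 3 were higher at an unadjusted p under 0.05, against 6.22% of all genes. Without KO 157 the median was 2.52 and 5 were higher, against 5.48%. Their summed signal was 685 in KO 157 and 5561 to 13411 in the other KO lungs. It was 22975 in WT 187 and 580 to 2088 in the other WT lungs. Hepatocyte markers summed to 162 in KO 157, 5732 in KO 192 and 482 to 1276 in the other KO lungs, and to 228 to 824 in WT lungs. Lists for cardiac muscle, leukocytes, thymocytes, red cells and fat cells also held no gene past limma's threshold. The part of these cells in the differences between genotypes was not tested.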

How the data were processed

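Lung RNA from 6 KO and 6 WT newborns was hybridized to Illumina MouseWG-6 v2.0 BeadChips. The authors deposited intensity values that GenomeStudio had averaged over the beads of a probe, neither background-subtracted nor normalized. A detection p-value per probe and array was deposited beside them. A second table of intensity values, which the authors had background-subtracted and quantile-normalized, served only as an alternative, with values under 16 set to 16. Probe names came from the platform annotation.

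Background was removed from these signals with RMA's normal-exponential model, quantile normalization followed, and log2 was taken. Of 45281 probes, 34885 had 1 gene, 18 had several and 10378 had none. A gene took the median of its probes, with no filter (19057 genes). Limma 3.58.1 in R 4.3.3 tested KO against WT, with a mean-variance trend and Benjamini-Hochberg adjustment over all genes, and separately over all probes. P-values measure the spread between lungs, each array being 1 animal, and 12 arrays set the precision. A probe counted as detected at a detection p under 0.05. A probe at background in all lungs of a group has only a bound, set by the lowest detected signal of each array.

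The members and gene lists were chosen with earlier results of these data known. All members are named, and from each list up to 4 genes with the smallest p, with further members of a list given as its extremes or because their roles belong together, chosen after their values were seen. The genes most like *Fkbp5* and *Tsc22d3* are the 5 with the highest r after genotype means were subtracted. Alternatives were other background corrections, scaling, the authors' processed values, detection filters, the brightest probe, other tests (limma without a trend, array weights, the methods' t-test, SAM with 100 permutations at q = 0), a covariate of Y-linked genes, KO 235, 237 and 238 left out together because their animal numbers lie apart, and each array left out in turn. Leaving out both KO 157 and WT 142, and all alternatives for *Per1* and *Ptges3*, were added after seeing the data. Promoter windows were RefSeq's of GRCm38.p6, and the build behind the probe annotation was not given in the sources used here. RT-qPCR, western blot and adult data were not analysed here. Plots were drawn with matplotlib 3.10.9 in Python 3.11.15.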

Additional observations from a re-analysis of the deposited data

Results flagged for a closer look

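In 34 groups of 6 lungs (17 member probes in each genotype), 6 had 1 lung that stood apart from the rest, the nominal rate of the criterion being about 1 in 20. Over the 17622 probes detected in all lungs, WT 142 stood apart in 3.84% and KO 235 in 0.55%. In 5 of the 6 groups the lung was WT 142, below all others. Its log2 signal was 8.09 for *Fkbp5*, with the other 5 WT lungs at 9.62 to 10.51. It was 5.39, 6.16 and 11.89 for the *Tsc22d3* probes ILMN_2648224, ILMN_2701664 and ILMN_3150811, with the other WT lungs at 6.63 to 6.84, 7.83 to 8.37 and 12.78 to 13.07. Probes of *Tsc22d3* share 1 gene and 1 lung here, so they are not separate events. For *Zbtb16* WT 142 was at 4.60, with the other WT lungs at 7.35 to 8.87. In the same lung *Sgk1* was the highest of the WT lungs, at 13.65. The last of the 6 was KO 235 on the *Arrdc2* probe ILMN_2613191, at 3.05 against 3.69 to 4.04 in the other KO lungs, a dim probe that was not detected in that lung.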

How the results depend on the processing

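Counts of members past the threshold stayed at 0 under 23 of 26 settings for merged genes and under 20 of 25 for probes, and leaving out 1 array at a time gave 0 to 1 genes and 0 to 2 probes. With only probes of a detection p under 0.01 on 6 arrays, 1 gene and 1 probe passed, both *Hsd11b1* (gene 0.33, adjusted p = 0.0498 from limma). With array weights 1 probe passed, ILMN_2693835 of *Arrdc2* (1.11, adjusted p = 0.0495). Without KO 235, 237 and 238, 1 gene and 1 probe passed, both *Ddit4* (2.08, adjusted p = 0.0267). Without KO 192, *Hsd11b1* passed among genes (0.36, adjusted p = 0.0419) and 1 probe each of *Arrdc2* and *Hsd11b1*, and without KO 235 the *Ddit4* probe (1.63, adjusted p = 0.0485). The cause of these changes was not tested. Over all genes, limma called 38, but 224 without KO 192, 0 without KO 238, WT 179, WT 182 or WT 187, 4 without WT 177 or WT 188, 9 without KO 186, 15 without KO 235, 12 without KO 237, 24 without WT 142, 106 with the stricter detection filter, 93 with array weights, 54 with the milder filter, 22 without KO 157, 12 with the Y-linked covariate and 6 with median scaling. SAM called 8, limma without a trend 1 and the methods' t-test after adjustment 0. Without KO 235, 237 and 238 limma called 36 genes. Over all probes it called 67, but 580 without KO 192, 256 with the stricter detection filter and 231 with array weights. Probes called were 97 without KO 235, 237 and 238 and 62 without KO 235.

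Single values of *Arrdc2*, *Nr3c1* and *Cebpd* shrank by over 1.5 times with no background correction or normexp, *Nr3c1* to −0.11 with normexp and *Cebpd* to 0.04 and 0.07. With no background correction *Zbtb16* shrank as much, from 1.37 to 0.89. Without KO 235, 237 and 238, *Cebpd* was 0.61, *Sgk1* 0.64 and *Nr3c1* −0.38. The direction of each member held under every alternative, except that *Cebpd* was −0.0720 with its brightest probe. Unadjusted p under 0.05 held for 4 to 9 members. The share of all genes at this p in either direction, 13.7% in the main fit, was not computed for the other settings, the Y-linked covariate included. The methods' t-test gave 4 such members, the authors' processed values 4 and array weights 5. *Per1* and *Ptges3* kept their direction under all 26 settings and the call under 4 and 7. The paper describes the lungs as coming from pairs of mice, but the labels do not say which KO and WT pups form a pair. No paired analysis was therefore possible, and the lungs were compared as unpaired groups. The dim *Arrdc2* and *Cebpd* probes and the undetected genes limit what can be seen. Age within the first hours, sex and BeadChip are not labelled per lung and their part was not tested, apart from the Y-linked covariate, under which 0 members passed and 7 had an unadjusted p under 0.05.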
